A study of Mus musculus with 12 samples.

Results

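Control libraries of granulocyte-monocyte progenitors (GMP) were set against control libraries labelled LSK, with the raw counts of both scaled together. The comparison used 6 of the 12 libraries of the series, 3 per group, and the 24982 genes listed for both fractions out of 35796 listed for either. GMP controls and LSK-labelled controls were bone marrow fractions of C57BL/6 mice, labelled control for treatment, and the series title describes the mice as a melanoma-bearing model. The GMP STING agonist and LSK STING agonist libraries, from mice given the STING agonist diABZI, entered the shared estimate of the spread and 1 comparison at the end. All 12 libraries therefore share the strain, the tissue and, per the title, the tumour. The labels speak of single-cell samples amplified by Smart-Seq2, a method that copies full-length cDNA from very little RNA. The labels read here do not state how many cells or which mice stand behind a library, how the fractions were sorted, or the sex and age of the mice. Whether replicates are separate mice is also not stated, so p-values reflect variation among libraries that may be technical. Where a library holds many cells, fewer cells of a type and less RNA per cell cannot be told apart.

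LSK cells are by definition negative for lineage markers and positive for Sca-1 and Kit, and they hold the stem cells and the earliest multipotent progenitors of the marrow. GMP arise downstream of them, carry Kit, CD34 and Fc gamma receptors, and make neutrophils and monocytes. Neutrophil precursors first fill their primary granules with proteases and myeloperoxidase under the factors C/EBPα, PU.1 and GFI1, and later fill secondary granules under C/EBPε. Red cell precursors follow another branch, in which GATA1, KLF1 and GFI1B switch on the erythropoietin receptor, carbonic anhydrases, iron uptake, haem synthesis and membrane skeleton genes. PU.1 and GATA1 are textbook antagonists of this branch point.

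The label LSK was checked against its defining genes. Ly6a, the gene of Sca-1, stood at 0, 0.0286 and 0.538 CPM (counts per 1e6 counts) in GMP controls, against 0.746, 0.395 and 0.596 CPM in LSK-labelled controls. Both groups were near 0 and overlapped (log2 difference -1.59 ± 0.98 SE, adjusted p = 0.344 by edgeR's quasi-likelihood test). Kit was measured at 135, 172 and 125 CPM in GMP controls and at 256, 339 and 193 CPM in LSK-labelled controls. Since the Sca-1 gene was barely detected while erythroid genes were abundant, the second group is called LSK-labelled and is given no other cell type name. For GMP, the Fc receptor gene Fcgr3 was found at 332, 277 and 321 CPM in GMP controls, against 12.1, 1.33 and 25.6 CPM in LSK-labelled controls.

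Control libraries held 35074217, 32005209 and 33833242 counts in GMP and 32632893, 47225983 and 33463479 in LSK-labelled cells. Across genes, log2 CPM correlated at 0.883 to 0.892 among GMP controls, 0.862 to 0.892 among LSK-labelled controls and 0.786 to 0.854 between the groups. LSK-labelled replicate 2 stood apart from its group. It was the deepest library, yet it detected 15099 genes, against 18158, 18092 and 18451 in the GMP controls and 18538 and 17763 in the other LSK-labelled controls. Mitochondrial genes held 2.13 to 3.52% of counts in GMP controls and 1.70 to 2.41% in LSK-labelled controls, and the 10 most abundant genes held 8.57 to 11.4% and 6.10 to 6.81%. The part of these measures in the differences was not tested. Counts of called genes are given with and without LSK-labelled replicate 2.

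Promoters of 3 granule genes that stood high in GMP controls and of 3 erythroid regulators that stood high in LSK-labelled controls are shown, since the comparison turns on these sets. Each window runs from 250 bases before to 50 bases after a start given by RefSeq on GRCm38.p6, 5′ to 3′ on the gene's strand. That start can differ from the start of the gene positions given elsewhere in the text, as for Mpo and Klf1. Distances before the start refer to the RefSeq start. Capitals mark matches, on either strand, to letters known from the binding motifs of GATA factors (AGATAA or TGATAA), PU.1 (GAGGAAG), C/EBP factors (TTGCNNAA) and KLF1 (CCACACCC).
Mpo: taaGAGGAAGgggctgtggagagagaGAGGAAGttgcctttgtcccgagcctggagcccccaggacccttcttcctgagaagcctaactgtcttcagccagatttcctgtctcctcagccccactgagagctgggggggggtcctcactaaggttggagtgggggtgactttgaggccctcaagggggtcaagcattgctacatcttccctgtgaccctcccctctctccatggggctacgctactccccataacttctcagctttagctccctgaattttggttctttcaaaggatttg
Elane: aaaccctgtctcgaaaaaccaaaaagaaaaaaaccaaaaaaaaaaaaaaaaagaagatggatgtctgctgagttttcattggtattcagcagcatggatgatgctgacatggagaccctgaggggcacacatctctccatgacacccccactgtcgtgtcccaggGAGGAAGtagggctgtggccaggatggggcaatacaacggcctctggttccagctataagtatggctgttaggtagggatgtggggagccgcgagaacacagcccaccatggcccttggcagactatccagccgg
Prtn3: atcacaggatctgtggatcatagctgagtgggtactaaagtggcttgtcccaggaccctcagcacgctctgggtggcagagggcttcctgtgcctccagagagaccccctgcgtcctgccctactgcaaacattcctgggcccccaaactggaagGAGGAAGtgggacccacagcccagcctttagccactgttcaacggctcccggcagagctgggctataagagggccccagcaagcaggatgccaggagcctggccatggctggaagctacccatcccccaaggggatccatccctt
Klf1: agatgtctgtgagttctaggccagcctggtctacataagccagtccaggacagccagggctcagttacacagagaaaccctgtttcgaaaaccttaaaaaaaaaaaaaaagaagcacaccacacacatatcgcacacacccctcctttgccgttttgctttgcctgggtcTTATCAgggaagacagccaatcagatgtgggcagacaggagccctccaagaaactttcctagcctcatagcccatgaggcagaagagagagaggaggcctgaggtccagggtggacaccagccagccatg
Gfi1b: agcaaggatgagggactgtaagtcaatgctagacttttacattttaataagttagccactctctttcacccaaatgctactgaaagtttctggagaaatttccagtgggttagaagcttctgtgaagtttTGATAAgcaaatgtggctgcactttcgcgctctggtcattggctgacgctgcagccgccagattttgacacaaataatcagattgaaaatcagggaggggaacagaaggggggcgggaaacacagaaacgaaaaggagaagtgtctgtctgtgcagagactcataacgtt
Epor: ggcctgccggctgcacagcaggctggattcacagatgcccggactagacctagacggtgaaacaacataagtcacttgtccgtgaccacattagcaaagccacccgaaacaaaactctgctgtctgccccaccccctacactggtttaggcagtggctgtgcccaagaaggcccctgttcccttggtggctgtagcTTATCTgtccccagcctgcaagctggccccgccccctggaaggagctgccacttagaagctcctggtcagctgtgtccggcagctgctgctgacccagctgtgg
The Mpo window, chr11:87793534-87793833 on the plus strand, held the PU.1 letters at 2 places. Elane (chr10:79886062-79886361, plus strand) and Prtn3 (chr10:79879417-79879716, plus strand) are neighbours and each held them at 1 place, 85 and 95 bases before the start. Klf1 (chr8:84901732-84902031, plus strand), Gfi1b (chr2:28621933-28622232, minus strand) and Epor (chr9:21963527-21963826, minus strand) each held 1 GATA match, 80, 120 and 54 bases before the start. The letters are common. Of the 32851 promoter windows searched, 13.6% held the PU.1 letters, 11.2% AGATAA, 9.05% TGATAA, 10.8% the C/EBP letters and 3.56% the KLF1 letters. Symbols matched windows for 573 genes called higher in GMP controls and 922 called lower. The PU.1 letters were in 15.9% of the windows of the genes called higher and 12.5% of those called lower, AGATAA in 6.21% and 8.12%, TGATAA in 6.34% and 5.73%, the C/EBP letters in 10.1% and 7.95%, and the KLF1 letters in 3.91% and 3.42%. Over the 13702 windows of genes tested, the shares were 13.6% for the PU.1 letters, 7.01% for AGATAA, 4.96% for TGATAA, 8.82% for the C/EBP letters and 3.76% for the KLF1 letters. These matches are descriptions of the printed windows and were not tested.

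Of 16857 genes that passed the filter on low counts, 1943 were called between the fractions (11.5%, edgeR's quasi-likelihood test, adjusted p below 0.05). In GMP controls 767 were higher (4.55%) and 1176 were lower (6.98%). Of 12836 protein-coding genes tested, 708 were higher and 1147 lower (14.5% called in either direction). These shares are the background for the called members counted in each gene list below. Counts of a few members are not read as a trait of a list. Most called genes differed strongly: 660 of the higher genes and 847 of the lower had a log2 difference of at least 1 in size, and 196 and 238 of at least 3. The genes called higher held 19.1% of all counts in GMP controls and 5.62% in LSK-labelled controls. Those called lower held 9.78% and 23.0%. The median log2 difference of all genes tested was 0.04. Without LSK-labelled replicate 2 the calls numbered 415 higher and 661 lower, and without GMP replicate 1 they numbered 397 and 730. The count of lower genes was 736 without GMP replicate 3. DESeq2, which scales and tests differently, called 1524 higher and 1528 lower, so that 49.9% of its calls were higher, against 39.5% in the edgeR fit.

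**Figure D1:**
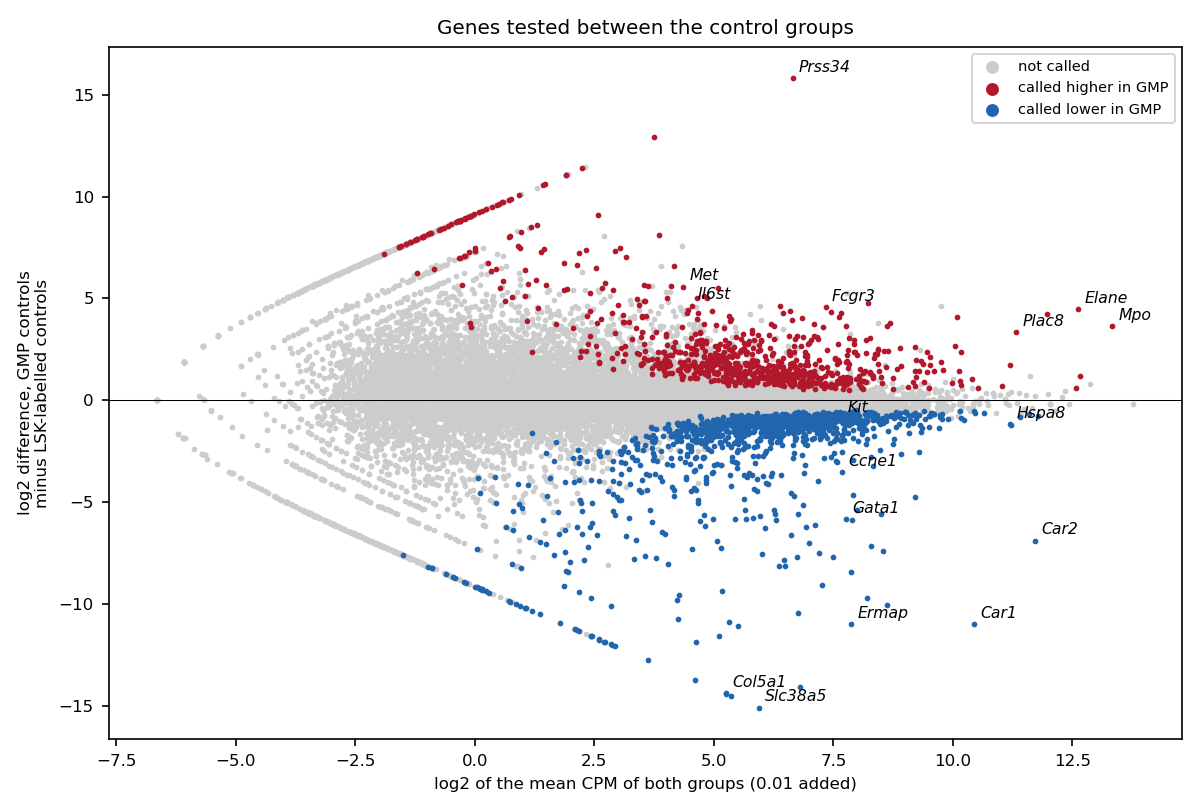
Log2 difference (GMP controls minus LSK-labelled controls) of each of the 16857 genes tested, against the log2 mean CPM of both groups with 0.01 added. Red points were called higher in GMP (767), blue points lower (1176) and grey points were not called; among abundant genes Mpo and Elane lie far above the line at 0, and Car1 and Car2 far below it.

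The libraries of the 2 groups did not overlap for 30.4% of all genes tested, 15.2% in each direction, which is the background for the counts of separation given here. Of the genes called higher 752 did not overlap, and of those called lower 1163. For the next counts, predicted and clone-named genes, pseudogenes, unconfirmed genes and genes of the mitochondrial genome were left out. Among the 590 remaining higher genes that averaged at least 20 CPM in GMP controls, LSK-labelled replicate 2 was the lowest library of its group for 361. Among the 1006 remaining lower genes that averaged at least 20 CPM in LSK-labelled controls, it was the highest of its group for 619. Of the genes named in the text by rule, 189 were called, and 123 of these were called in each of the 6 fits that left out 1 control library. A gene named below as higher or lower is among the 123 unless the text says otherwise.

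Primary granule genes formed the most abundant signal of GMP controls. TPM (transcripts per 1e6 transcripts) was computed over protein-coding genes, and genes of the mitochondrial genome were left out of its ranks. Elane, neutrophil elastase, was the top gene per length in this ranking. It had 40861 ± 9010 TPM in GMP controls and 1904 ± 1784 in LSK-labelled controls (SD, n = 3). Mpo, myeloperoxidase, which makes hypochlorous acid, followed with 19037 ± 2078 and 1609 ± 1183 TPM, and Prtn3, proteinase 3, stood at 14759 ± 1474 and 836 ± 643 TPM. Of the 26 genes of the primary granule list, 25 were listed for both fractions and tested, and 24 of them were higher in GMP controls and none lower. Their median log2 difference was 3.65, beside 0.04 for all genes. This list and the others below were written with earlier results of these data known. Their counts and medians therefore describe the lists and are not independent support. The fit without LSK-labelled replicate 2 called 21. The summed level of the list was 49695 to 66601 CPM in GMP controls, and 7281, 2508 and 7382 CPM in LSK-labelled replicates 1, 2 and 3.

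Mpo, on chromosome 11 from 87793581 to 87804413 on the plus strand of GRCm38, was measured at 19167, 19154 and 18875 CPM in GMP controls and at 2252, 275 and 2035 CPM in LSK-labelled controls. The GMP values lay close together, while LSK-labelled replicate 2 was well below the rest of its group. The log2 difference was 3.65 ± 0.81 (SE, adjusted p = 0.0123) and 3.18 without that library. Elane, on chromosome 10 from 79886247 to 79888215, had 13179, 7926 and 14939 CPM in GMP controls and 471, 35.9 and 1108 CPM in LSK-labelled controls. Its log2 difference was 4.48 ± 0.95 (adjusted p = 0.00971), with a range of 3.96 to 5.59 over the fits that left out 1 control library. Prtn3 was measured at 7955, 5979 and 8800 CPM against 591, 52.9 and 556 CPM. Its log2 difference was 4.24 ± 0.78 (adjusted p = 0.00467). Ctsg, cathepsin G, had 1630, 1259 and 3240 CPM in GMP controls and 160, 14.8 and 179 CPM in LSK-labelled controls. Its log2 difference was 4.11 ± 0.87 (adjusted p = 0.00977). For all of these genes the groups did not overlap, and the lowest library was LSK-labelled replicate 2.

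Other members of the list make, pack or restrain granule proteins. Plac8, a small cysteine-rich protein of myeloid cells, stood at 4671 ± 1819 CPM in GMP controls and 461 ± 232 in LSK-labelled controls (log2 difference 3.34 ± 0.42, adjusted p = 4.00e-04). Calr, the chaperone calreticulin, stood at 3592 ± 117 and 1071 ± 167 CPM (1.75 ± 0.24). Alas1, the housekeeping form of the first enzyme of haem synthesis, was higher at 1815 ± 454 against 283 ± 86.0 CPM (2.68 ± 0.43, adjusted p = 0.00210), and myeloperoxidase is itself a haem protein. Slpi, an inhibitor of elastase and cathepsin G, was measured at 22.9, 29.1 and 19.9 CPM in GMP controls and at 0.166, 0 and 1.31 CPM in LSK-labelled controls (5.63 ± 1.28, adjusted p = 0.0143). Ctsc, the protease that activates the granule serine proteases, had 206 ± 72.4 and 79.0 ± 16.8 CPM and did not pass (adjusted p = 0.0527).

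**Figure D2:**
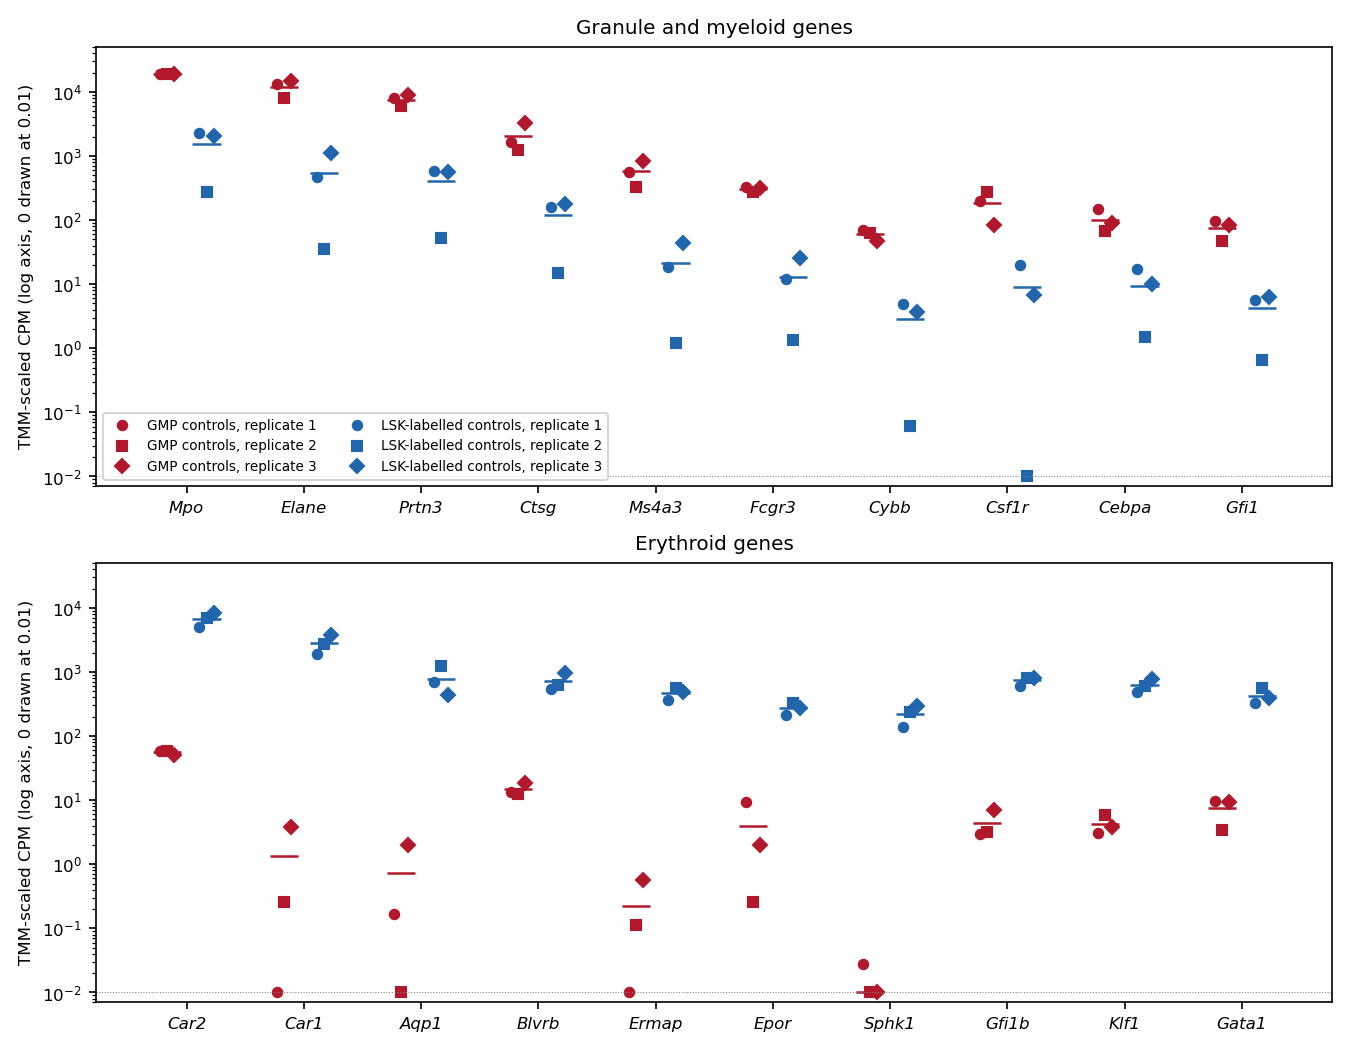
TMM-scaled CPM on a log axis of 10 granule and myeloid genes (upper panel) and 10 erythroid genes (lower panel) in the 3 GMP control libraries (red) and the 3 LSK-labelled control libraries (blue); bars are group means and a value of 0 is drawn at 0.01. No gene shown had overlapping groups, and LSK-labelled replicate 2 (square) was the lowest of its group for the 10 genes of the upper panel.

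Genes of later neutrophil stages were less evenly separated. Of 27 secondary granule and mature neutrophil genes, all listed for both fractions, 25 were tested, 8 were higher in GMP controls and none lower, and 5 were called without LSK-labelled replicate 2. The median log2 difference was 4.15, or 3.82 with genes at 0 in a group set to their bound. Several called members code for the oxidase that makes superoxide. Cybb, its catalytic subunit, had 69.2, 62.2 and 47.5 CPM in GMP controls and 4.89, 0.0624 and 3.72 CPM in LSK-labelled controls (4.38 ± 0.94, adjusted p = 0.0106). Ncf1, the p47 organiser subunit, stood at 253 ± 54.6 and 19.0 ± 10.1 CPM (3.74 ± 0.81), and Cyba, the p22 subunit, at 145 ± 66.4 and 47.8 ± 10.1 CPM (adjusted p = 0.00604). Ncf4, the p40 subunit, was also called (3.13 ± 0.82), but not without GMP replicate 1 (adjusted p = 0.0684) or 2 (0.0556) or LSK-labelled replicate 2 (0.0563) or 3 (0.0720). Cebpe, the factor of the secondary granule stage, was called (22.7 ± 11.1 and 1.28 ± 1.10 CPM, 4.15 ± 1.03) but not without GMP replicate 3 (adjusted p = 0.0674) or LSK-labelled replicate 3 (0.0651).

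Among the members not called, 4 are given that were highest in GMP replicate 3. S100a9, Ltf and Camp were chosen for these values and not by the rule for named genes, so they do not describe the list. S100a9 was measured at 1.40, 0.629 and 85.7 CPM in GMP controls and at 0.0276, 0.499 and 0.357 CPM in LSK-labelled controls (adjusted p = 0.0588). Ngp had 0.0280, 2.80 and 117 CPM in GMP controls and 0.636, 0 and 0 CPM in LSK-labelled controls (adjusted p = 0.0830). Ltf, lactoferrin, had 0, 2.37 and 27.3 CPM in GMP controls and no count in LSK-labelled controls, which makes it at least 387-fold higher if LSK-labelled controls are given 3 counts in all (adjusted p = 0.109). GMP replicate 3 held most of the level of these 3 genes. Camp, the cathelicidin gene, had 0.561, 1.86 and 16.5 CPM in GMP controls, again with the highest value in replicate 3.

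Beyond the oxidase, genes of lysosomes and phagocytosis were higher in GMP controls. Of 26 NADPH oxidase, lysosome and phagocytosis genes, 25 were listed for both fractions and tested, 16 were higher, 1 was lower, and the median log2 difference was 1.42. In all, 12 were called higher without LSK-labelled replicate 2. Rac2, the small GTPase that switches the oxidase on, was measured at 780, 666 and 756 CPM in GMP controls and at 264, 198 and 214 CPM in LSK-labelled controls (1.70 ± 0.16, adjusted p = 5.06e-05). Lyz2, lysozyme, stood at 678 ± 25.6 and 125 ± 33.7 CPM (2.44 ± 0.49), Hexa, a lysosomal hexosaminidase subunit, at 311 ± 28.0 and 77.9 ± 1.45 CPM (adjusted p = 5.05e-04), and Laptm5, a lysosomal membrane protein of blood cells, at 511 ± 65.7 and 191 ± 53.0 CPM (1.42 ± 0.28).

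Monocyte genes were present beside the neutrophil genes. Of 26 monocyte and macrophage genes, all listed for both fractions, 25 were tested, 11 were higher in GMP controls, none was lower, and the median log2 difference was 3.77. Without LSK-labelled replicate 2, 9 were called, and the fewest were 6 when another control library was left out. Ms4a6c, a membrane protein of monocytes, was measured at 220, 211 and 214 CPM in GMP controls and at 20.4, 3.48 and 15.3 CPM in LSK-labelled controls (4.04 ± 0.74, adjusted p = 0.00459). Sirpa, the receptor for CD47, stood at 136 ± 35.7 and 9.98 ± 1.25 CPM (3.77 ± 0.55), Fcer1g, the Fc receptor gamma chain, at 88.5 ± 25.7 and 9.33 ± 4.34 CPM (3.25 ± 0.46), and the chemokine gene Ccl9 at 525 ± 62.0 and 123 ± 62.8 CPM (2.10 ± 0.42).

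Some well known monocyte genes did not pass, and their LSK-labelled libraries differed widely. Ccr2 and F13a1 were named after their values were seen. Ly6c2, the gene of the monocyte antigen Ly6C, had 1625, 1184 and 2173 CPM in GMP controls and 45.5, 0 and 156 CPM in LSK-labelled controls. Its log2 difference of 4.63 ± 1.46 missed the threshold (adjusted p = 0.0605) and passed without LSK-labelled replicate 2 (0.0138). Ccr2, the chemokine receptor of inflammatory monocytes, had 120 ± 35.1 and 4.84 ± 4.29 CPM (adjusted p = 0.0705), and F13a1, coagulation factor XIII A, had 359, 662 and 266 CPM in GMP and 9.32, 0 and 23.6 CPM in LSK-labelled controls (adjusted p = 0.0704). For each of these genes the groups did not overlap, and LSK-labelled replicate 2 was at 0.

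The transcription factors divided by lineage. Of 20 granulocyte and monocyte fate factors, all listed for both fractions, 19 were tested, 6 were higher in GMP controls and none lower, and the median log2 difference was 2.56. Without LSK-labelled replicate 2, 3 were called, and the fewest were 1 when another control library was left out. Gfi1, the repressor that favours neutrophil over monocyte fate, was the member called in every such fit, at 97.6, 46.4 and 83.3 CPM in GMP controls and 5.72, 0.645 and 6.40 CPM in LSK-labelled controls (4.16 ± 0.73, adjusted p = 0.00350). Cebpa, the gene of C/EBPα, was measured at 148, 66.8 and 91.0 CPM against 17.1, 1.48 and 9.92 CPM (3.43 ± 0.90, adjusted p = 0.0279). Its call was lost without GMP replicate 1 (0.0827), GMP replicate 3 (0.0565), LSK-labelled replicate 2 (0.0642) or LSK-labelled replicate 3 (0.0847). Irf8, the monocyte and dendritic cell factor, had 648, 910 and 388 CPM in GMP controls and 100, 0 and 39.6 CPM in LSK-labelled controls and did not pass (3.80 ± 1.59, adjusted p = 0.152). Spi1, the gene of PU.1, had 79.7, 84.7 and 324 CPM and 36.2, 9.01 and 30.5 CPM and did not pass either (2.69 ± 1.04, adjusted p = 0.124). For both the groups did not overlap. Myb, a factor of many progenitors, had 514 ± 94.8 and 359 ± 54.4 CPM (adjusted p = 0.125).

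Of 22 erythroid and megakaryocytic factors, all listed for both fractions and tested, 11 were lower in GMP controls and 1 was higher, and the median log2 difference was -1.09. Leaving out LSK-labelled replicate 2 gave 9 lower and 1 higher. Gfi1b, the erythroid and megakaryocytic relative of Gfi1, was measured at 2.97, 3.18 and 6.94 CPM in GMP controls and at 602, 814 and 794 CPM in LSK-labelled controls (-7.40 ± 0.51, adjusted p = 6.25e-06). Klf1, the factor of globin and red cell membrane genes, on chromosome 8 from 84901928 to 84905291, had 3.11, 5.86 and 3.85 CPM against 479, 601 and 778 CPM (-7.18 ± 0.45, adjusted p = 3.90e-06). Gata1 had 9.70, 3.38 and 9.35 CPM in GMP controls and 327, 565 and 386 CPM in LSK-labelled controls (-5.83 ± 0.49, adjusted p = 2.23e-05). The groups were far apart for these 3 genes, and every fit that left out 1 control library called them. Nfia stood at 1.98 ± 0.884 and 111 ± 50.5 CPM (-5.80 ± 0.49), and Zfpm1, the GATA1 cofactor FOG1, at 6.84, 2.46 and 3.26 CPM in GMP and 40.5, 58.0 and 35.1 CPM in LSK-labelled controls (-3.41 ± 0.40).

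Partners of GATA1 that also act in stem cells differed less. Tal1 stood at 8.34 ± 2.36 CPM in GMP controls and 26.8 ± 4.80 in LSK-labelled controls (-1.68 ± 0.36, adjusted p = 0.00989), and Ldb1 at 37.7 ± 3.14 and 73.8 ± 8.92 CPM (-0.97 ± 0.20). Bcl11a, the repressor of fetal globin genes, stood at 85.5, 55.5 and 70.5 CPM in GMP and 273, 284 and 219 CPM in LSK-labelled controls (-1.87 ± 0.23). Gata2 was lower at 70.3 ± 33.4 against 215 ± 84.7 CPM (-1.61 ± 0.39), but not without LSK-labelled replicate 1 (adjusted p = 0.0582) or 2 (0.0642), or with the 6 controls alone (0.0647). Lyl1, a relative of Tal1, was the higher member, at 305 ± 3.66 and 154 ± 30.5 CPM (0.98 ± 0.19). Lmo2 and Nfe2 had close means, 223 ± 39.1 and 221 ± 46.9 CPM for Lmo2 (0.01 ± 0.24) and 162 ± 28.5 and 166 ± 28.6 CPM for Nfe2 (-0.03 ± 0.20).

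**Figure D3:**
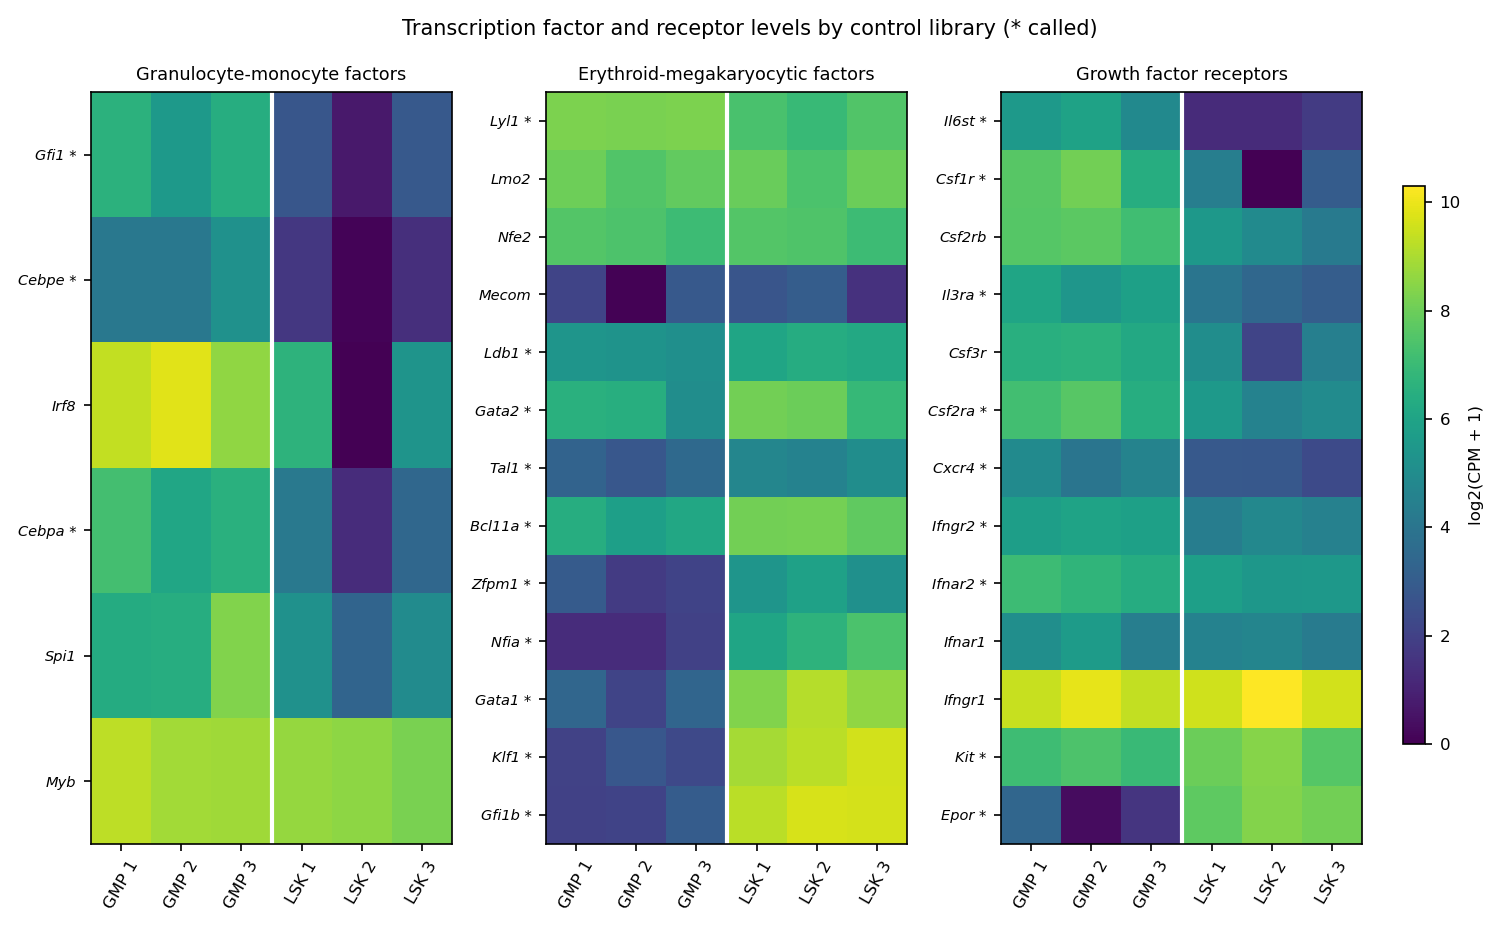
Log2(CPM + 1) of the granulocyte-monocyte factors, erythroid-megakaryocytic factors and growth factor receptors described in the text, in each GMP control and each LSK-labelled control library, ordered by log2 difference from the highest in GMP at the top; an asterisk marks a called gene. Gfi1b, Klf1 and Gata1 are low in all 3 GMP controls and high in all 3 LSK-labelled controls, and LSK-labelled replicate 2 has the darkest cells of its group for many granulocyte-monocyte factors.

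Early erythroid enzymes and surface genes had the median difference farthest from 0 among the 29 lists. Of 30 genes, 28 were listed for both fractions and 27 tested, 25 were lower in GMP controls and none higher, and the median log2 difference was -5.89. Leaving out LSK-labelled replicate 2 left 22 called. Their summed level was 501 to 523 CPM in GMP controls and 12520 to 18454 CPM in LSK-labelled controls. Car2 and Car1, cytosolic carbonic anhydrases, reached 9902 ± 1531 and 7927 ± 1966 TPM in LSK-labelled controls, against 79.4 ± 12.4 and 3.51 ± 5.41 TPM in GMP controls. Among protein-coding genes outside the mitochondrial genome, they held ranks 3 and 6 per length in LSK-labelled controls. Car2, on chromosome 3 from 14886273 to 14900770, was measured at 59.1, 58.1 and 51.1 CPM in GMP controls and at 5055, 6890 and 8211 CPM in LSK-labelled controls (-6.90 ± 0.28, adjusted p = 8.89e-08). Car1, on the same chromosome from 14766216 to 14808368, had 0, 0.257 and 3.82 CPM against 1899, 2707 and 3759 CPM (-11.00 ± 1.51, adjusted p = 7.21e-04).

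Receptors, channels and blood group proteins of red cell precursors followed. Epor, the erythropoietin receptor, had 9.51, 0.257 and 1.98 CPM in GMP controls and 212, 333 and 276 CPM in LSK-labelled controls (-6.12 ± 1.03, adjusted p = 0.00276). Aqp1, a water channel, had 0.168, 0 and 2.01 CPM against 689, 1241 and 438 CPM (-10.08 ± 1.15), and Ermap, an erythroblast membrane protein, 0, 0.114 and 0.567 CPM against 360, 563 and 488 CPM (-11.00 ± 0.96, adjusted p = 2.75e-05). Each of these genes was nearly undetected in at least 1 GMP control and abundant in every LSK-labelled control. Rhd, the Rh blood group protein, stood at 0.708 ± 1.04 and 590 ± 111 CPM (-9.70 ± 1.04), and Blvrb, biliverdin reductase B, at 14.7 ± 3.31 and 712 ± 232 CPM (-5.60 ± 0.34). Sphk1, a kinase that makes sphingosine-1-phosphate, had 1 count in GMP controls and 26158 in LSK-labelled controls, a ratio of 23527 with a 95% exact binomial interval of 4222 to 929311 that covers counting error only. Tfrc, the transferrin receptor that dividing cells of all kinds use, differed least among the members named, at 148 ± 35.4 and 506 ± 100 CPM (-1.78 ± 0.22, adjusted p = 3.11e-04).

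Genes of haem and iron handling were lower in GMP controls for most called members. Of 26 haem, globin and iron genes, 23 were listed for both fractions and 22 tested, 11 were lower in GMP controls and 2 higher, with a median log2 difference of -1.33, and without LSK-labelled replicate 2 the counts were again 11 and 2. Later enzymes of haem synthesis were lower in GMP controls. Alad stood at 109 ± 29.1 against 600 ± 95.8 CPM (-2.46 ± 0.25), Urod at 126 ± 30.8 against 466 ± 57.0 CPM (-1.89 ± 0.24) and Fech, which inserts the iron, at 43.5 ± 2.46 against 304 ± 74.4 CPM (-2.81 ± 0.24). Steap3, a ferrireductase, stood at 38.2 ± 2.89 and 277 ± 51.3 CPM (-2.86 ± 0.20), and Tfr2, an iron sensor, at 24.5 ± 9.95 and 178 ± 15.8 CPM (-2.86 ± 0.30). The higher members were Alas1, described among the granule genes, and Slc25a37, the mitochondrial iron importer mitoferrin, at 57.9 ± 9.59 and 24.9 ± 2.25 CPM (1.22 ± 0.25, adjusted p = 0.00779).

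Globins and the erythroid form of the first enzyme of haem synthesis were low in both groups. These 3 genes were named after their values were seen, and reads of the alpha and beta globin copies may have been split between near-identical genes. Alas2 had 3.79, 9.13 and 0.482 CPM in GMP controls and 3.81, 5.14 and 1.55 CPM in LSK-labelled controls (0.35 ± 0.85, adjusted p = 0.859). Hba-a1 had 6.31, 7.87 and 8.22 CPM against 10.4, 5.77 and 18.9 CPM (-0.65 ± 0.68, adjusted p = 0.618). Hbb-bs averaged 2.92 ± 0.632 and 2.36 ± 1.27 CPM (adjusted p = 0.907). The groups overlapped for each of these genes. Of 15 late erythroid markers, 14 were listed for both fractions and 12 tested, 5 were lower in GMP controls and none higher, and 3 were lower without LSK-labelled replicate 2. Rhag, an Rh-associated channel, was lower at 0.591 ± 1.02 against 164 ± 38.4 CPM (-8.12 ± 1.10).

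Of 30 megakaryocyte and platelet genes, 28 were listed for both fractions and 25 tested, 3 were lower and 1 was higher in GMP controls, and the median log2 difference was -1.56. Without LSK-labelled replicate 2, 2 were lower and none higher. Over all genes tested, 6.98% were lower and 4.55% higher. F2r, a thrombin receptor, was measured at 15.3, 11.9 and 26.9 CPM in GMP controls and at 222, 309 and 119 CPM in LSK-labelled controls (-3.59 ± 0.45, adjusted p = 4.08e-04). Gp5, a platelet glycoprotein, had 4.35, 8.27 and 3.43 CPM against 75.4, 175 and 76.5 CPM (-4.35 ± 0.85, adjusted p = 0.00644). Both receptors stood apart between the groups, whereas the groups overlapped for the 2 genes that follow. Pf4, platelet factor 4, named after its values were seen, had 28.1, 19.8 and 4.31 CPM in GMP controls and 17.4, 14.5 and 29.5 CPM in LSK-labelled controls (adjusted p = 0.888), and Itga2b, the integrin CD41, had 41.6 ± 22.5 and 123 ± 91.2 CPM (adjusted p = 0.105).

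Genes of basophils, mast cells and eosinophils varied widely among the GMP libraries. Of 24 listed genes, 18 were listed for both fractions and 17 tested, 6 were higher and 2 lower in GMP controls, and the median log2 difference was 2.37. Without LSK-labelled replicate 2, 1 was higher and none lower. That gene was Hdc, the enzyme that makes histamine, with 360, 364 and 285 CPM in GMP controls and 58.2, 65.5 and 25.5 CPM in LSK-labelled controls (2.76 ± 0.60, adjusted p = 0.0112). Prss34, a basophil protease, had 138, 463 and 1.81 CPM in GMP controls and no count in LSK-labelled controls, at least 7843-fold higher (adjusted p = 0.0253). Its call was lost without GMP replicate 1 (0.0505), GMP replicate 2 (0.0522), LSK-labelled replicate 1 (0.0577), 2 (0.0745) or 3 (0.0687), and by limma-voom (0.297). Prg2, major basic protein of eosinophils, had 60.1, 0.486 and 20.3 CPM in GMP controls and also no count in LSK-labelled controls, at least 1066-fold higher (adjusted p = 0.0197), and was not called without GMP replicate 1 (0.0505), LSK-labelled replicate 2 (0.0626) or 3 (0.0562), or by limma-voom (0.107). Cpa3, mast cell carboxypeptidase, had 717, 344 and 174 CPM against 150, 35.3 and 54.1 CPM (2.37 ± 0.57), and was not called without GMP replicate 1 (0.0846), LSK-labelled replicate 2 (0.0663) or 3 (0.0737), or with the 6 controls alone (0.0570). The GMP libraries ranked differently for these genes: replicate 2 was highest for Prss34 and replicate 1 for Prg2 and Cpa3.

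Cytokine receptors sorted with the lineages. Of 28 growth factor receptor genes, all listed for both fractions, 26 were tested, 11 were higher in GMP controls and 3 lower, and the median log2 difference was 1.16. The counts were 8 higher and 1 lower without LSK-labelled replicate 2. Csf2ra, the ligand-binding chain for GM-CSF, was measured at 144, 195 and 84.1 CPM in GMP controls and at 45.9, 22.7 and 29.9 CPM in LSK-labelled controls (2.10 ± 0.38, adjusted p = 0.00390). Il3ra, that for interleukin 3, stood at 54.3 ± 11.8 and 10.7 ± 3.99 CPM (2.34 ± 0.46, adjusted p = 0.00698). Their groups did not overlap. Il6st, the shared chain of the interleukin 6 family, had 44.6 ± 15.8 CPM against 1.77 ± 0.606 CPM (4.65 ± 0.90, adjusted p = 0.00627). Cxcr4, the receptor that retains cells in marrow, stood at 29.1, 15.1 and 23.3 CPM in GMP and 6.44, 6.14 and 3.93 CPM in LSK-labelled controls (2.03 ± 0.39), Ifngr2 at 57.9 ± 3.81 and 22.8 ± 3.56 CPM (1.34 ± 0.21), and Ifnar2 at 107 ± 24.9 and 47.1 ± 6.88 CPM (1.18 ± 0.24). Their partner chains Ifngr1 (774 ± 174 and 917 ± 278 CPM, adjusted p = 0.538) and Ifnar1 (34.0 ± 14.6 and 21.8 ± 3.22 CPM, adjusted p = 0.288) did not pass.

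Receptors for the colony-stimulating factors of mature lineages were more variable. Csf1r, for M-CSF, had 184 ± 94.1 CPM in GMP controls and 8.96 ± 10.2 CPM in LSK-labelled controls (4.37 ± 1.22, adjusted p = 0.0374). It was not called without GMP replicate 1 (0.0821), 2 (0.0821) or 3 (0.0532) or LSK-labelled replicate 3 (0.114), with the 6 controls alone (0.0928) or under the replicate block (0.0761). Csf3r, for G-CSF, had 90.2, 98.0 and 72.4 CPM against 32.5, 3.35 and 21.1 CPM and did not pass (2.20 ± 0.94, adjusted p = 0.161), and Csf2rb, the common beta chain, which has a close copy in mice, had 182 ± 35.0 and 30.5 ± 12.9 CPM (adjusted p = 0.150). The groups did not overlap for these 3 receptors. Kit was lower in GMP controls (-0.87 ± 0.22, adjusted p = 0.0221), but not without GMP replicate 1 (0.0815), GMP replicate 3 (0.0815) or LSK-labelled replicate 2 (0.101), or with the 6 controls alone (0.0762).

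Adhesion and Fc receptor genes of myeloid progenitors were higher in GMP controls for 9 of the 20 listed and tested, lower for 2, with a median log2 difference of 0.87. The counts were 7 and 2 without LSK-labelled replicate 2. Reads of the related Fc gamma receptor genes may have been split between them. Fcgr3, the low-affinity receptor CD16, differed by 4.58 ± 1.01 on the log2 scale (adjusted p = 0.0121), and Fcgr2b, the inhibitory receptor CD32, stood at 170 ± 31.4 and 19.1 ± 13.2 CPM (3.15 ± 0.51). Selplg, the selectin ligand PSGL-1, stood at 288 ± 48.6 and 129 ± 21.3 CPM (1.16 ± 0.21), and Itgal, the LFA-1 alpha chain, at 126 ± 38.5 and 25.7 ± 6.00 CPM (2.30 ± 0.35). Itga4, the VLA-4 alpha chain that anchors progenitors in marrow, was lower in GMP controls at 105 ± 8.88 against 193 ± 37.2 CPM (-0.88 ± 0.20, adjusted p = 0.0123).

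Stem cell genes gave no general order. Of 33 stem and multipotent progenitor genes, all listed for both fractions, 31 were tested, 4 were lower and 1 was higher in GMP controls, and the median log2 difference was -0.93. The fit without LSK-labelled replicate 2 gave 3 lower and 1 higher. The shares over all genes tested were 6.98% lower and 4.55% higher. Mllt3, a cofactor of stem cell maintenance that also acts in erythroid and megakaryocytic cells, was measured at 6.39, 12.8 and 12.6 CPM in GMP controls and at 53.6, 86.3 and 76.5 CPM in LSK-labelled controls (-2.77 ± 0.30, adjusted p = 1.38e-04). Hoxa7 was the higher member, at 52.1 ± 5.12 CPM against 13.9 ± 5.27 CPM (1.90 ± 0.33, adjusted p = 0.00338). Well known genes of long-term stem cells were low and did not pass, Hlf and Procr being named after their values were seen. Hlf had 9.35 ± 2.13 and 14.0 ± 2.45 CPM (adjusted p = 0.631), Mecom 3.23 ± 3.13 and 4.83 ± 2.78 CPM (adjusted p = 0.834), and Procr 5.75 ± 3.53 and 3.11 ± 2.78 CPM (adjusted p = 0.773). Cd34, a marker of stem cells and GMP, had 564, 654 and 555 CPM in GMP controls and 270, 98.1 and 161 CPM in LSK-labelled controls. The groups did not overlap, but the gene did not pass (1.75 ± 0.62, adjusted p = 0.0907). Among 19 customary sort markers, 17 were listed for both fractions and 14 tested, 2 were higher and 2 lower; besides the Fc receptors and Kit, Eng was lower at 56.5 ± 14.5 against 208 ± 40.6 CPM (-1.88 ± 0.25, adjusted p = 6.02e-04). Endoglin marks early erythroid as well as stem cells.

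Lymphoid genes were few. Of 21 lymphoid-primed genes, 20 were listed for both fractions and 14 tested, 2 were higher and 1 lower in GMP controls. Without LSK-labelled replicate 2, none was higher and 1 lower. All genes tested gave 4.55% higher and 6.98% lower. Ikzf1, the factor Ikaros, was lower at 157, 159 and 183 CPM in GMP controls against 260, 331 and 350 CPM in LSK-labelled controls (-0.91 ± 0.19, adjusted p = 0.00952). Dntt, the terminal transferase of early lymphoid cells, named after its values were seen, failed the filter on low counts, with 0, 0 and 0.0850 CPM in GMP controls and 69.2, 0 and 4.38 CPM in LSK-labelled controls. Its level was highest in LSK-labelled replicate 1 and 0 in LSK-labelled replicate 2.

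Cell cycle genes were called in 1 direction, and most members did not pass. Over all genes tested, 6.98% were lower in GMP controls. Of 30 DNA replication and G1/S genes, all listed and tested, 5 were lower in GMP controls and none higher, with or without LSK-labelled replicate 2, and the median log2 difference was -0.42. Ccne1, cyclin E1, which drives entry into S phase, stood out at 24.1, 47.2 and 26.7 CPM in GMP controls and 320, 395 and 414 CPM in LSK-labelled controls (-3.53 ± 0.28, adjusted p = 1.45e-05). Rrm1, the large subunit of ribonucleotide reductase, stood at 322 ± 59.4 and 966 ± 221 CPM (-1.58 ± 0.22), and Cdc6, a licensing factor, at 159 ± 40.7 and 408 ± 63.5 CPM (-1.36 ± 0.23). Among members not called, and named after their values were seen, Pcna (32.0 ± 23.1 and 30.2 ± 9.64 CPM, adjusted p = 0.947) and Tyms (106, 114 and 135 CPM in GMP and 127, 61.8 and 179 CPM in LSK-labelled controls, adjusted p = 0.952) had close means. Of 30 mitosis and spindle genes, all listed and tested, 10 were lower in GMP controls and none higher, 6 without LSK-labelled replicate 2, with a median of -0.56. Cenpa, the centromeric histone, stood at 110 ± 21.1 and 337 ± 67.1 CPM (-1.61 ± 0.21), Ccnb1, cyclin B1, at 57.7 ± 7.75 and 160 ± 42.7 CPM (-1.47 ± 0.25), and Hmmr at 57.7 ± 19.8 and 159 ± 23.0 CPM (-1.46 ± 0.25). Mki67, the gene of the Ki-67 antigen, had 252 ± 78.9 and 311 ± 65.9 CPM (adjusted p = 0.497).

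Glycolytic genes were called in both directions, with relatives of 1 enzyme on opposite sides. Of 25 glycolysis and pentose phosphate genes, all listed and tested, 5 were higher and 5 lower in GMP controls, 4 and 4 without LSK-labelled replicate 2, and the median log2 difference was 0.51. Hk2, a hexokinase, was higher at 39.9 ± 4.54 CPM in GMP controls against 7.90 ± 3.97 CPM in LSK-labelled controls (2.33 ± 0.40, adjusted p = 0.00315). Hk1, its relative, was lower at 119, 131 and 61.6 CPM against 330, 630 and 280 CPM (-1.99 ± 0.35, adjusted p = 0.00338). Phosphofructokinase genes were also called in opposite directions. Pfkp, the platelet form, stood at 123 ± 27.2 and 37.8 ± 4.57 CPM (1.70 ± 0.26), and Pfkm, the muscle form that red cells also use, at 7.21 ± 2.04 and 91.3 ± 31.5 CPM (-3.66 ± 0.39, adjusted p = 1.25e-04). Gpi1, the glucose phosphate isomerase, was higher at 1137 ± 65.6 against 426 ± 5.99 CPM (1.42 ± 0.21), and the lactate and pyruvate carrier gene Slc16a1 was lower at 103 ± 37.2 against 378 ± 94.8 CPM (-1.87 ± 0.26).

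Of 32 nuclear respiratory chain genes, all listed and tested, 5 were lower in GMP controls and none higher, 2 without LSK-labelled replicate 2, and the median was -0.07. For this list and the next, the shares over all genes tested were 6.98% lower and 4.55% higher. Atp5b, the ATP synthase beta subunit, was measured at 2921, 2521 and 2476 CPM in GMP controls and at 3870, 4776 and 4646 CPM in LSK-labelled controls (-0.75 ± 0.15, adjusted p = 0.00857). Of 25 cholesterol and fatty acid synthesis genes, all listed and tested, 5 were lower and 2 higher, 2 and 1 without LSK-labelled replicate 2. Sqle, squalene epoxidase, stood at 40.5 ± 6.55 and 135 ± 47.8 CPM (-1.73 ± 0.29) and Idi1, an isomerase of the sterol pathway, at 19.3 ± 5.62 and 47.3 ± 2.81 CPM (-1.30 ± 0.27). Of 47 cytosolic ribosomal protein genes, all listed and tested, none was called by edgeR in either direction and 1 by DESeq2; their median log2 difference was 0.37 and their summed level 21510 to 39939 CPM in GMP controls and 24754 to 35783 CPM in LSK-labelled controls.

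Of 28 Toll-like receptor and innate sensor genes, 27 were listed for both fractions and 25 tested, 5 were higher and 3 lower in GMP controls, 4 and 1 without LSK-labelled replicate 2. The fewest higher calls without 1 control library were 2. All genes tested gave 4.55% higher and 6.98% lower. Casp1, the inflammasome protease, was higher at 70.5, 58.4 and 67.6 CPM in GMP controls against 17.5, 4.37 and 8.85 CPM in LSK-labelled controls (2.68 ± 0.40, adjusted p = 0.00123). Ddx58, the RNA sensor RIG-I, was lower at 10.6, 9.53 and 9.01 CPM against 30.2, 47.3 and 22.6 CPM (-1.78 ± 0.28, adjusted p = 0.00183). Of 30 type I interferon-stimulated genes, all listed and tested, 8 were lower and 2 higher in GMP controls, 7 and 0 without LSK-labelled replicate 2, with a median of -0.74. In a fit of the 6 control libraries alone, 2 were lower and 0 higher. Oasl1, a relative of oligoadenylate synthetases that limits interferon production, had 0.925, 0 and 2.35 CPM in GMP controls and 44.4, 78.7 and 40.9 CPM in LSK-labelled controls (-5.64 ± 0.87, adjusted p = 0.00164). Rtp4 stood at 5.88 ± 2.36 and 42.9 ± 15.4 CPM (-2.86 ± 0.36, adjusted p = 4.25e-04). Bst2 and Ifitm3, the higher members, had log2 differences of 0.70 ± 0.20 and 1.15 ± 0.28; neither was called without GMP replicate 1 (adjusted p = 0.118 and 0.0523), GMP replicate 3 (0.145 and 0.0812) or LSK-labelled replicate 2 (0.126 and 0.0792) or with the 6 controls alone (0.130 and 0.0687), and Bst2 not without LSK-labelled replicate 1 (0.0944).

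Of 27 immediate-early and heat-shock genes, all listed for both fractions, 26 were tested, 4 were lower and 3 higher in GMP controls, 4 and 2 without LSK-labelled replicate 2. The shares over all genes tested were 6.98% lower and 4.55% higher. Hspa8, the constitutive HSP70 relative, was among the most abundant lower genes, with 1204, 1768 and 1332 CPM in GMP controls and 2751, 3914 and 3253 CPM in LSK-labelled controls (-1.20 ± 0.19, adjusted p = 0.00210). Its partners Hsph1 (131 ± 49.1 and 419 ± 99.9 CPM, -1.67 ± 0.26) and Dnajb1 (133 ± 18.8 and 258 ± 15.3 CPM, -0.95 ± 0.17) were also lower. The other lower member was the immediate-early gene Nr4a1, an orphan nuclear receptor, at 1.16 ± 0.836 and 7.99 ± 4.02 CPM (-2.78 ± 0.78, adjusted p = 0.0376). Its call was lost without GMP replicate 1 (0.0881), 2 (0.0638) or 3 (0.0810), without LSK-labelled replicate 1 (0.0665) or 3 (0.115), with the 6 controls alone (0.112) and by limma-voom (0.202). Hspd1, a mitochondrial chaperone outside this list, was lower at 1469 ± 297 against 3251 ± 501 CPM (-1.15 ± 0.18). Klf2, a quiescence and endothelial factor, was higher at 31.9, 25.6 and 28.8 CPM against 4.53, 0.479 and 4.20 CPM (3.24 ± 0.64, adjusted p = 0.00723).

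Markers of other cell types were checked as lists, as far as their members were listed for both fractions. No gene listed for a fraction had 0 counts over its libraries, so markers seen in only 1 fraction were left out. Beside each count stand the shares over all genes tested, 4.55% higher and 6.98% lower. Of 18 T and NK markers, 12 were listed for both fractions and 5 tested; Nkg7, which myeloid precursors also express and the primary granule list also holds, was the called member. Cd3e had 5 counts in GMP controls and 0 in LSK-labelled controls. Of 15 B and plasma cell markers, 13 were listed and 8 tested; 2 were higher in GMP controls, 1 without LSK-labelled replicate 2, and the summed level of the list was 84.8 to 104 CPM in GMP controls and 18.6 to 35.0 CPM in LSK-labelled controls. Cd79b, a B cell receptor chain, held most of it in GMP controls, at 84.3 ± 14.5 and 14.0 ± 6.55 CPM (2.59 ± 0.51). Of 18 stromal, endothelial and tumour markers, 16 were listed and 9 tested; the summed level was 84.7 to 108 CPM in GMP controls and 35.0 to 64.7 CPM in LSK-labelled controls, most of it Pecam1 in GMP (70.4 ± 11.2 and 19.5 ± 5.60 CPM). Pecam1 was called (1.85 ± 0.42), but not without LSK-labelled replicate 2 (adjusted p = 0.0606) or 3 (0.0553). Of 17 dendritic cell markers, 13 were listed and 12 tested; 1 was higher and 1 lower. The lower member was Zbtb46, a factor known from conventional dendritic cells, at 0.113 ± 0.102 and 23.6 ± 6.98 CPM (-7.66 ± 1.16, adjusted p = 0.00146). The summed level of the dendritic list was 220 to 347 CPM in GMP controls and 256 to 282 CPM in LSK-labelled controls. Zbtb46 is 1 member of the list, and its bearing on dendritic cells was not tested. The part of other cell types in the differences was not tested.

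**Figure D4:**
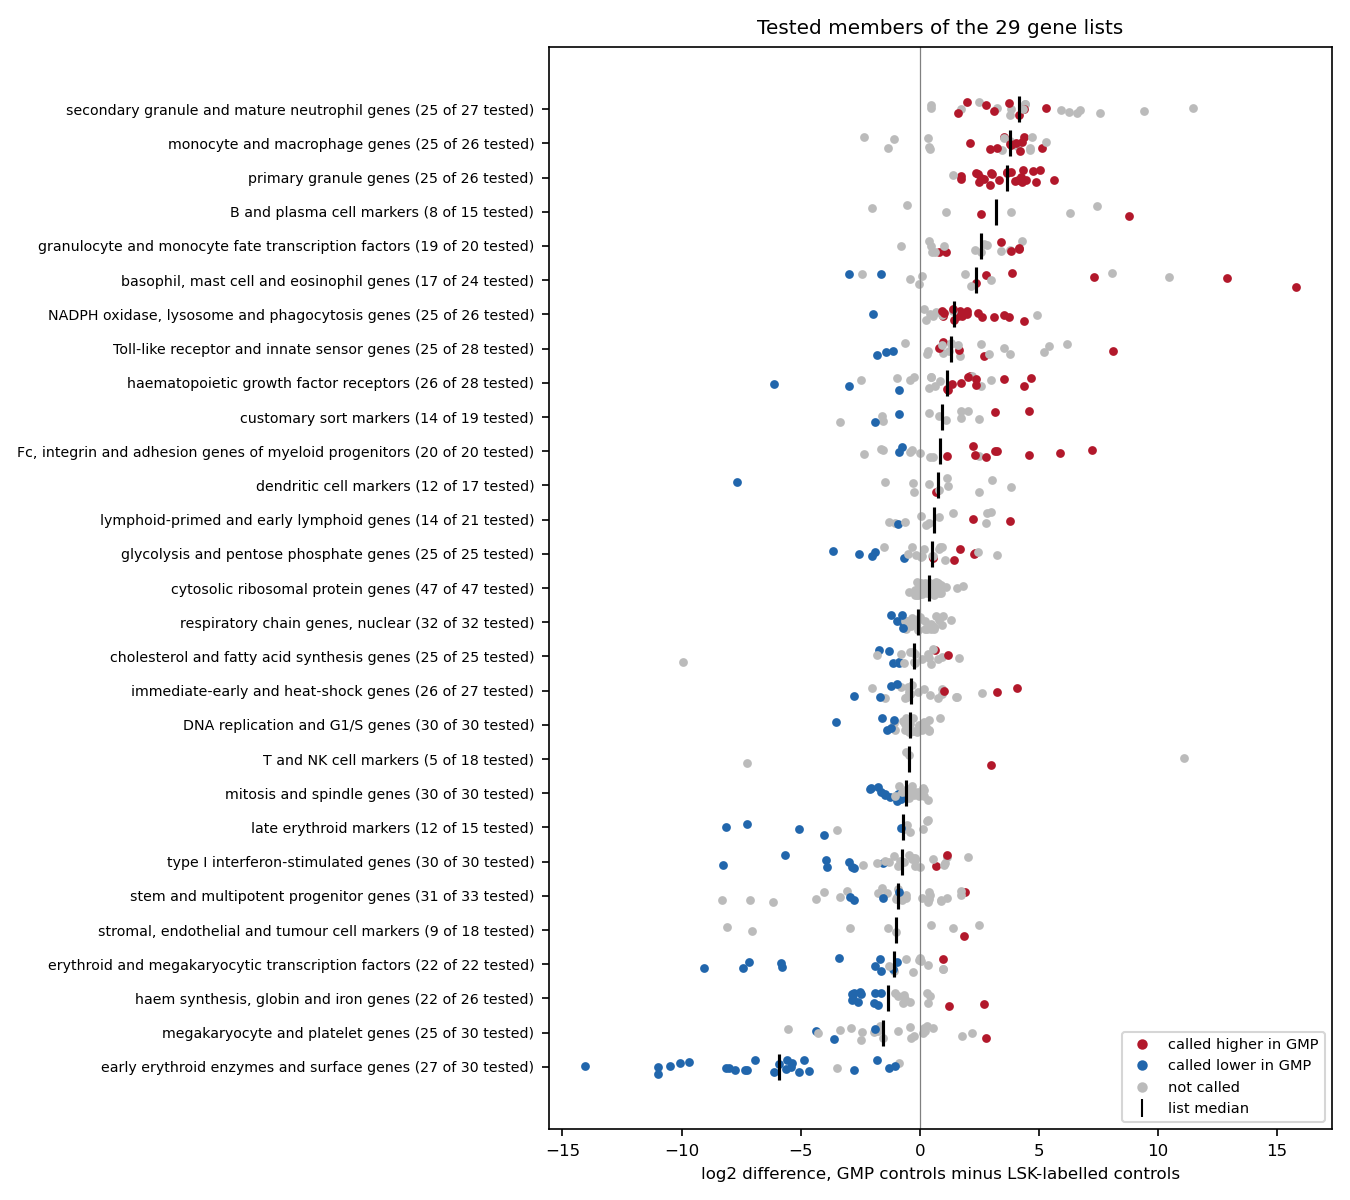
Log2 difference (GMP controls minus LSK-labelled controls) of the tested members of 29 gene lists, 1 point per gene, with the number tested of the number listed beside each name; black bars are list medians. The early erythroid list lies lowest with a median of -5.89, the primary granule list reaches 3.65 with 24 of 25 tested members called higher, and ribosomal protein genes cluster near 0 with no call. The lists were written with earlier results of these data known.

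Some of the largest differences lay outside the lists. Among genes called higher with at least 20 CPM in GMP controls, Mefv, the gene of the inflammasome protein pyrin, had 17.8, 51.3 and 37.6 CPM in GMP controls and 0.0553, 0 and 1.07 CPM in LSK-labelled controls (6.60 ± 1.38, adjusted p = 0.00918). Met, the hepatocyte growth factor receptor, had 42.9, 48.3 and 29.1 CPM against 0.608, 0 and 1.94 CPM (5.58 ± 1.12, adjusted p = 0.00741). Chd7, a chromatin remodeller, stood at 33.5 ± 12.5 and 0.690 ± 1.03 CPM (5.63 ± 1.09), and Clec5a, a myeloid lectin receptor, at 56.2 ± 10.6 and 1.76 ± 2.22 CPM (5.01 ± 1.08). Each of these genes was at 0 in LSK-labelled replicate 2. Their log2 values depend on those few counts, and for Mefv ran from 6.01 to 10.35 over the fits that left out 1 control library.

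In the other direction several genes had no count at all in the 3 GMP controls, so that 3 counts in all were assumed there and each fold is a bound. These genes were listed for GMP through counts in its agonist libraries. Genes listed for only 1 fraction were left out of this ranking. They numbered 4754 for LSK-labelled cells, 42 of them seen in all 3 controls, and 6060 for GMP, 61 of them seen in all 3 controls. Slc38a5, an amino acid transporter, had 98.1, 101 and 170 CPM in LSK-labelled controls and was at least 4228-fold lower in GMP controls (adjusted p = 1.55e-04). Prss50, a serine protease known from testis, had 35.6, 115 and 94.5 CPM (at least 2991-fold lower), and Sh2d4a, an SH2 adaptor, 71.4, 94.4 and 64.1 CPM (at least 2780-fold lower). Col5a1, a collagen V chain known from connective tissue, had 93.2, 42.0 and 92.7 CPM in LSK-labelled controls (at least 2548-fold lower, adjusted p = 6.25e-06). Aldh1a7, an aldehyde dehydrogenase with close relatives in the mouse genome that can share reads, had 32.4, 47.1 and 66.1 CPM (at least 1695-fold lower). All 3 LSK-labelled libraries held these genes. Igsf3 had 2 counts in GMP controls and 8505 in LSK-labelled controls, which is 3825-fold more (1058 to 31588 by the same kind of interval), and Crip2, a LIM protein, averaged 0.0380 ± 0.0329 and 91.2 ± 32.8 CPM (-11.11 ± 0.86).

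The same contrast was read in mice given the agonist. Over all genes tested, the agonist libraries of the fractions did not overlap with GMP higher for 19.6% and with GMP lower for 16.5%, and the GMP mean was above the LSK-labelled mean for 50.5% and below it for 49.5%. The 590 and 1006 abundant genes called and not overlapping in controls were those counted above, without predicted genes, pseudogenes and the like. Of the 590 higher genes, 575 had a higher mean in GMP than in LSK-labelled libraries after the agonist as well, and for 513 the groups again did not overlap. Of the 1006 lower genes the counts were 928 and 698. Mpo was measured at 21216, 21228 and 25836 CPM in GMP agonist libraries and at 1336, 572 and 5508 CPM in LSK-labelled agonist libraries. Car2 had 43.4, 53.5 and 39.2 CPM against 8837, 9334 and 6130 CPM, and Klf1 3.47, 1.09 and 1.58 CPM against 730, 683 and 611 CPM. The order of the fractions for these genes was that of the controls. A test of whether the difference between fractions itself differed after the agonist called 0 of 16857 genes by edgeR (0%), with 1707 at an unadjusted p below 0.05, and 179 by DESeq2 (1.06%). The edgeR count was 25 without LSK-labelled STING agonist replicate 3, 2 without GMP control replicate 2, and 0 or 1 without any other library. Col5a1 and Tspo2, an erythroid membrane protein, were among the 10 genes with the smallest p in edgeR's test and did not pass (adjusted p = 0.177 for both). Their changes of the difference were 6.99 ± 1.14 and -4.28 ± 0.67 on the log2 scale. Col5a1 had no count in GMP controls and 0.236, 0.649 and 0.675 CPM in GMP agonist libraries, so its change is not a measured fold. In LSK-labelled libraries Col5a1 averaged 75.9 CPM in controls and 90.2 CPM after the agonist.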

How the data were processed

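The authors deposited raw counts per Ensembl gene for 12 Smart-Seq2 libraries without molecular identifiers, in a table for each fraction. The submitters' processing notes list mm9, while the positions in the files matched GRCm38 (GENCODE M21) for 94.7% of matched GMP genes and 94.6% of matched LSK genes, so GRCm38 is given here. No aligner, counter or strand setting was given in the sources read, so reads of overlapping or antisense genes cannot be told apart.

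Groups came from the sample labels. Genes listed for both fractions were joined, filtered with filterByExpr, scaled by TMM and fitted together over the 4 groups of 12 libraries with edgeR 4.0.16 in R 4.3.3. The quasi-likelihood test was used with Benjamini-Hochberg adjustment at 0.05, and the SE is the log2 difference divided by the square root of F. DESeq2 1.42.0, limma 3.58.1 with voom, other scalings and filters, a replicate block, the 6 controls alone and fits without each library were the alternatives. The biological coefficient of variation was 80.2%. Counts of 15964 genes were also simulated, with the same mean in all 4 groups except for genes changed in GMP controls. In the contrast of the control groups, 50.5% of 99 genes changed 4-fold and 76.0% of 100 changed 16-fold were recovered, with 4 false calls. In the data 1943 genes were called, so the simulation had far fewer differences and these rates need not hold for the data. Counts of 32005209 to 47225983 per control library set the precision, and intervals and floors cover counting error only.

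The genes named were, among called and non-overlapping genes of at least 20 CPM, the 12 with the largest difference and the 6 with the highest level per direction. Predicted and clone-named genes, pseudogenes, unconfirmed genes and genes of the mitochondrial genome were left out of that step. Members of the factor, receptor and sort marker lists were added, with up to 6 called members per direction and 2 uncalled members of each other list, and the 10 genes with the smallest p after the agonist. Exceptions are stated where they occur, and a few genes that the rule names are not reported here. Promoter windows on chromosome 18 were not used. The members and gene lists were chosen with earlier results of these data known.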

Additional observations from a re-analysis of the deposited data

How the results depend on the processing

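No gene called between GMP and LSK-labelled controls changed direction under any alternative run. DESeq2 called 1524 genes higher and limma-voom 1440, against 767 by edgeR, and the 6 controls alone gave 732 lower, against 1176. Leaving out 1 library at a time gave 397 to 727 genes higher and 661 to 1068 lower. The count for a changed difference after the agonist was 179 by DESeq2 and 0 to 25 over the fits without 1 library. The causes were not tested. With the replicate block, 774 were higher and 1325 lower, and 13 of 189 named calls were lost. Same-numbered control libraries correlated at -0.010, 0.019 and 0.086 in their deviations, and same-numbered agonist libraries at 0.170, 0.086 and 0.080, each above that library's values with other numbers (-0.112 to 0.021). Deviations from a group mean are tied to each other, so matched and unmatched values are not independent. The labels give no shared source, so the numbers were not taken to pair the samples. Whether same-numbered libraries share mice was not tested. The median log2 difference of all genes was 0.15 without LSK-labelled replicate 1, against 0.04. Named calls lost numbered 54 without LSK-labelled replicate 2 and 39 with the 6 controls alone. At a coefficient of variation of 80.2%, many smaller differences could not be detected.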
